A study of Homo sapiens with 2 samples.

Results

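The homeobox transcription factors described here were taken from 2 spotted cDNA arrays that compared the TSG101-knockdown line Saos-2-2 with its parent Saos-2. They are the HOX genes of the A, B, C and D clusters together with the DLX, MSX, NKX, sine oculis (SIX3, SIX4 and others), PAX, LHX, PITX, IRX, MEIS, PBX, PRRX and POU families and TGIF2. They were chosen by the gene symbols that the arrays give each spot. The rule used no measured value, but earlier results of these data were known when the members were chosen. The arrays held 116 spots of 109 such clones, for 71 genes. Of these spots, 107 on replicate 1 and 106 on replicate 2 were usable by the scanner's flag, among 37719 and 37088 usable spots of all genes. A clone entered the test where either channel reached 1.5 times the background around the spot on each array, which left 97 clones of 67 genes among 34674 probes. Of the 12 clones left out, 7 were unusable on both arrays, 4 on 1 array, and 1, a clone of MEIS1, was too dim. HOXA2, HOXB4, POU3F4 and SIX6 had no tested clone.

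Homeobox proteins bind DNA through a homeodomain, a small helical fold that recognises short sequences rich in A and T, and they specify position and cell identity in the embryo. The HOX genes lie in 4 clusters and are expressed in the order in which they stand along the chromosome. PBX and MEIS proteins, of the TALE class, bind DNA together with HOX proteins. In bone, DLX5, MSX1 and MSX2 act in the osteoblast lineage and in the growth of the skull, and PRRX1 and PRRX2 mark the mesenchyme of limb and face.

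Saos-2 is a human osteosarcoma cell line with osteoblast character. Saos-2-2 was derived from it by an shRNA against TSG101, introduced together with a plasmid carrying GFP and puromycin resistance, and by isolation and cloning of resistant, fluorescent colonies. Both lines were grown in the same serum-supplemented medium, and the parent carried neither construct. Each of 2 biological replicates was 1 array, with Saos-2 RNA in Cy3 and Saos-2-2 RNA in Cy5 on both, and an effect of the dyes on a gene and a difference between the lines cannot be told apart. There was no line with a control shRNA, so that the effects of cloning, of selection and of lower TSG101 cannot be told apart either. In such bulk RNA, fewer cells that express a gene and less RNA per cell cannot be told apart.

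The log2 ratio of TSG101 was -0.48 on replicate 1 and -0.24 on replicate 2 (mean -0.36, standard error 0.12, n = 2 arrays, limma adjusted p = 0.201), and its unadjusted p under 0.05 was lost in 4 of the 14 processing alternatives. All 11 measured osteoblast markers were above background in both lines on both arrays. So were all tested markers of epithelial, haematopoietic, endothelial and neural cells. Only clones that had passed the filter on background were tested, which largely set these counts beforehand. Of 5 haematopoietic markers with a spot 4 were tested, and of 4 endothelial markers 3. The counts therefore do not show which markers the cells expressed. The summed net intensity of the osteoblast markers, the mean foreground minus the local background, was 19152 and 17065 in Saos-2 on replicates 1 and 2, but 6634 and 48777 in Saos-2-2. The sum over epithelial markers was 1618 and 1643 in the parent and 1379 and 2537 in the knockdown line, that of the haematopoietic markers 700.0 and 764, and 522 and 768, that of the endothelial markers 501 and 461, and 266 and 579, and that of the neural markers 1089 and 1064, and 829 and 1111. That of the mesenchymal markers was 13739 and 10047 in the parent and 3680 and 7479 in the knockdown line. Signal on a spotted array includes nonspecific binding. The 2 Saos-2-2 samples stood apart from each other in several genes of bone matrix. Each of the other marker sums in Saos-2-2 was also higher on replicate 2. The log2 ratio of COL1A2, a chain of type I collagen, was -3.23 on replicate 1 and 3.33 on replicate 2, and that of SPP1, which encodes osteopontin, -0.91 and 4.20. COL1A1 was at -2.91 and 1.17, and SPARC at -2.22 and 2.27. BMP2 was at -0.45 and 0.59. The remaining osteoblast markers did not go from below 0 to above 0 in this way. IBSP was at -1.67 and -0.51 and ALPL at -1.71 and -0.13, both below 0 on both arrays. PTH1R, at 0.72 and -0.003, and BGLAP, at 0.16 and -0.41, had the larger ratio on replicate 1. RUNX2, the master factor of osteoblasts, was at 0.03 and -0.08. With 2 arrays, each result that follows is given with the value of each of them.

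To show the genomic context of members whose clones moved together, the 200 bases before the annotated start are printed for MSX2 and TGIF2, the genes with 2 clones that both had an unadjusted p under 0.05, and for DLX2, the gene of 1 clone with the lowest p that the sequence table holds. DLX4, whose 2 clones also had such a p, is only named. The sequences are from RefSeq on GRCh38.p14, where 39 of the 67 tested genes matched by symbol, and each is written 5′ to 3′ on the strand of its gene. Capitals mark the letters TAATTA, a core bound by many homeodomains, which reads the same on both strands. They also mark CCAAT, the box bound by NF-Y, then GGGCGG, the box bound by SP1, and the TATA box letters TATAAA, each on either strand. No 2 matches overlap in these windows.
MSX2, chr5:174724382-174724581, plus strand: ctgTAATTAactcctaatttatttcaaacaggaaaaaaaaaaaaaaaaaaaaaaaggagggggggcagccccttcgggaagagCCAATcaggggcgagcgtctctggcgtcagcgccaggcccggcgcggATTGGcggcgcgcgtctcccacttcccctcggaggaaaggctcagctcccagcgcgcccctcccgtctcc
TGIF2, chr20:36573264-36573463, plus strand: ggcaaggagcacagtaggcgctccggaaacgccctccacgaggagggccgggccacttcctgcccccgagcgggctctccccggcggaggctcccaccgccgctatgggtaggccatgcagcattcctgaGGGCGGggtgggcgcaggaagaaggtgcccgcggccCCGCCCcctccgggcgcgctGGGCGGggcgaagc
DLX2, chr2:172102901-172103100, minus strand: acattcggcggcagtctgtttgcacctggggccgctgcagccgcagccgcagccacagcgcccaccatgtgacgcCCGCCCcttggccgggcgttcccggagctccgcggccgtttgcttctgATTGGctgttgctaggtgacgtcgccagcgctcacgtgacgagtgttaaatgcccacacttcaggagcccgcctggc
The window of MSX2 held 1 TAATTA and 2 CCAAT letters, that of TGIF2 held 3 GGGCGG, and that of DLX2 1 CCAAT and 1 GGGCGG. Of these, TAATTA was found in 3.29% of 35116 promoters and in 2 of the 39 member promoters, CCAAT in 28% and in 18, GGGCGG in 40.1% and in 24, and TATAAA in 8.59% and in 1. These matches are a description of the letters and do not show binding.

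Across the 97 tested homeobox clones, 17 of 14 genes were higher and 10 of 9 genes lower in Saos-2-2 at an unadjusted p under 0.05 in limma, where 13.5% of all probes were higher and 9.70% lower. The members' shares were 17.5% and 10.3%, and 27.8% in either direction, where 23.2% of all probes had such a p. None passed an adjusted p of 0.05, as was the case for all 34674 probes, and the lowest adjusted p of a member was 0.106. The median log2 ratio of the members was 0.07, against -0.01 for all tested probes. With the deposited log2 ratios, which are scaled otherwise, both were lower, at -0.003 and -0.07. Only 3 clones, those of PRRX1 and DLX4 among them, reached a log2 ratio of 1 in size, or 3.09% of the members, where 1.96% of all probes did. The sign was the same on both arrays for 64 clones, or 66.0%, where 70.7% of all probes had 1 sign. Of these clones 40 were above 0 on both arrays and 24 below, where 35.2% and 35.6% of all probes were. Of the tested clones, 12 came from wells recorded as a failed PCR, among them those of HOXA10, HOXA11, HOXC9, SIX3, PITX1 and PAX3 and a clone each of MEIS2, PAX2 and those listed as HOXA9 or HOXA10. Homeobox genes as a whole thus had shares of called clones near those of all probes. A larger share than of all probes lay above 0 on both arrays and a smaller share below, a difference that was not tested. The values below describe single genes and families.

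**Figure D1:**
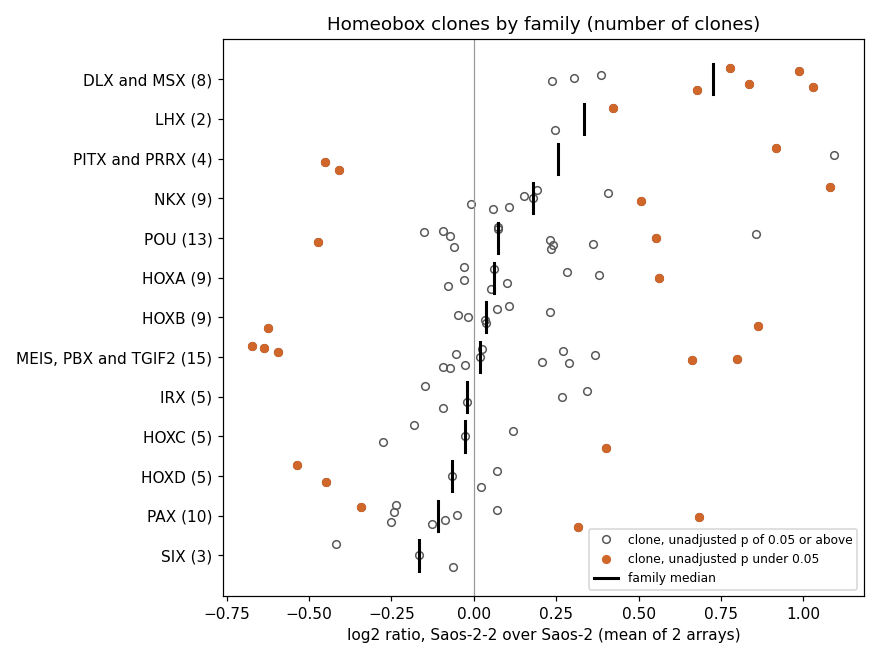
Log2 ratio of Saos-2-2 over Saos-2 (x axis, mean of 2 arrays) for each of the 97 tested homeobox clones, by family (y axis, number of clones in brackets). Filled points have an unadjusted p under 0.05 in limma and black lines are family medians. All 8 DLX and MSX clones lie above 0, with a median of 0.73, while the HOX clusters centre near 0.

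The DLX and MSX genes, relatives of Drosophila Distal-less and muscle segment homeobox, had the highest median of the 13 families, 0.73, and it lay between 0.63 and 0.86 over the 14 processing alternatives. Without the failed PCR wells the median of PITX and PRRX was higher, at 0.91 against 0.72. All 8 DLX and MSX clones had a mean log2 ratio above 0, where 17066 of all 34674 probes did. Of the 8, 6 were above 0 on both arrays, where 35.2% of all probes were. At an unadjusted p under 0.05 in limma, 5 clones of 3 genes were higher, where 13.5% of all probes were. DLX4, a distal-less gene known from placenta and blood cells, gave a net intensity of 333 and 346 in Saos-2 by its clone IMAGE:196444, and of 469 and 1149 in Saos-2-2. Both Saos-2-2 values were above both Saos-2 values, and the array of replicate 2 had by far the larger gap. The log2 ratios were 0.54 and 1.52 (mean 1.03, standard error 0.27, n = 2, limma adjusted p = 0.160). The second clone of DLX4, IMAGE:681997, had 0.45 and 1.22 (mean 0.84, standard error 0.22, adjusted p = 0.163 in limma).

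MSX2, a homeobox gene of the cranial sutures, gave 128 and 113 in Saos-2 and 214 and 419 in Saos-2-2 by clone IMAGE:322016. Its log2 ratios were 0.58 and 1.40 (mean 0.99, standard error 0.23, limma adjusted p = 0.146). Clone IMAGE:665658 gave 0.49 and 1.06 (mean 0.78, standard error 0.18, adjusted p = 0.143 in limma), so that both clones of the gene pointed the same way on both arrays. DLX2, a gene of forebrain and craniofacial development, was the member of this family with nearest to equal ratios on both arrays. Its net intensity was 261 and 201 in Saos-2 and 441 and 367 in Saos-2-2, with no overlap of the lines. The log2 ratio was 0.75 and 0.61 (mean 0.68, standard error 0.11, limma adjusted p = 0.112).

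The other DLX and MSX genes were near 0 or below it on replicate 1 and above it on replicate 2. DLX5, a factor of osteoblast differentiation, gave 742 and 1066 in Saos-2 and 632 and 1640 in Saos-2-2. The lines overlapped, and the log2 ratio was -0.08 and 0.56. DLX6, its neighbour and partner in jaw and limb development, had -0.21 and 0.82. MSX1, a gene of tooth and palate, had 0.04 and 0.73 as the mean of 3 spots of 1 clone. On replicate 2 these spots were unlike: before normalization, with 50 added to each net intensity, 2 of them gave 1.21 and 1.19 and the third 0.10. None of DLX5, DLX6 and MSX1 had an unadjusted p under 0.05. All of the 8 clones but that of DLX2 had the larger ratio on replicate 2. On that array the Saos-2-2 sums of osteoblast markers and of each other marker group were also higher. Their part in these values was not tested.

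**Figure D2:**
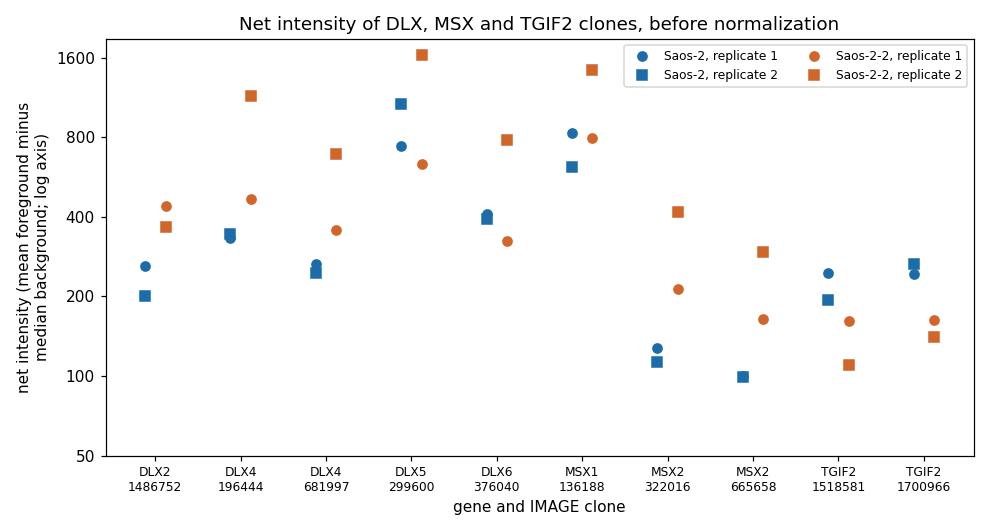
Net intensity before normalization (y axis, log scale, mean foreground minus median local background) of each DLX, MSX and TGIF2 clone (x axis) in Saos-2 and Saos-2-2 on each array. DLX4, MSX2 and DLX2 are higher in Saos-2-2 on both arrays, DLX5, DLX6 and MSX1 on replicate 2 only, and both TGIF2 clones are lower in Saos-2-2 on both.

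Among the genes of the TALE class, TGIF2, a repressor that acts with SMAD proteins on genes responsive to TGF-beta, was the member with the lowest ratios. Clone IMAGE:1700966 gave 243 and 265 in Saos-2 and 163 and 140 in Saos-2-2, with no overlap. Its log2 ratio was -0.44 and -0.90 (mean -0.67, standard error 0.16, n = 2, limma adjusted p = 0.145), and clone IMAGE:1518581 had -0.46 and -0.81 (mean -0.64, standard error 0.14, adjusted p = 0.135 in limma). Both clones kept a negative ratio and an unadjusted p under 0.05 in all 14 alternatives.

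PBX3, a DNA-binding partner of HOX proteins, had clones that disagreed, at -0.60 (-0.45 and -0.74 on the arrays), 0.02 and 0.27. Only the first, IMAGE:2306852, had an unadjusted p under 0.05 (standard error 0.13, limma adjusted p = 0.134). PBX2 had a ratio of -0.05 on each array. The MEIS genes, which encode partners of PBX and HOX proteins, had opposite signs on the arrays by all 3 tested clones. MEIS1 gave 0.34 and -0.49, and the clones of MEIS2 gave 0.23 and -0.42, and 0.56 and -0.62. In Saos-2 the latter MEIS2 clone, from a well recorded as a failed PCR, had net intensities of 491 and 557, and in Saos-2-2 of 682 and 376. The means of the MEIS clones were between -0.09 and -0.03.

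HOX genes of the 4 clusters centred near 0, with a median log2 ratio of 0.04 over 28 clones of 21 genes, against -0.01 for all tested probes. With print-tip loess both medians were -0.01, and with the deposited ratios the HOX median was -0.03 against -0.07 for all probes. An unadjusted p under 0.05 was seen for 3 of these clones that were higher and 3 that were lower, or 10.7% each way. Of all probes, 13.5% were higher and 9.70% lower by that threshold. Of the 28 clones, 20 had 1 sign on both arrays, or 71.4%, where 70.7% of all probes did. In the HOXA cluster the clone of HOXA4, an anterior HOX gene, had the highest ratio, at 0.43 and 0.69 (mean 0.56, standard error 0.12, limma adjusted p = 0.136). The arrays also assign this clone to LOC285943, and a spot of double-stranded cDNA does not tell strands apart. HOXA5 was at 0.08 and 0.68, and HOXA7 at 0.11 and 0.46. HOXA10, HOXA11 and HOXA13 had means between -0.08 and 0.10. HOXA11, a gene of the forearm, gave 709 and 619 in Saos-2 and 659 and 745 in Saos-2-2. The 2 clones listed as HOXA9 or HOXA10 were at 0.06 and -0.03.

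In the HOXB cluster HOXB2 and HOXB13, each with 1 tested clone, had the widest ratios. HOXB2, a gene of hindbrain segments, gave 500.0 and 498 in Saos-2 and 594 and 1438 in Saos-2-2. Saos-2-2 was higher on both arrays, and most of the gap lay on replicate 2, with log2 ratios of 0.35 and 1.38 (mean 0.86, standard error 0.28, n = 2, limma adjusted p = 0.201). HOXB13, the most posterior gene of the cluster, known from prostate and tail bud, gave 420.0 and 359 in Saos-2 and 225 and 257 in Saos-2-2. Its log2 ratio was -0.71 and -0.54 (mean -0.63, standard error 0.11, adjusted p = 0.117 in limma). The tested clone came from the plates of the Cancer Genome Anatomy Project (CGAP), which hold 9 of the 97 tested member clones. The other clone of HOXB13, usable on replicate 1 only, was dim there, with a net intensity of 55 for Saos-2 against 44 for Saos-2-2. The other 7 clones, of HOXB5, HOXB6, HOXB7 and HOXB9, had means between -0.05 and 0.23. HOXB5 gave 863 and 539 in Saos-2 and 697 and 680.0 in Saos-2-2 by its brighter clone, and its log2 ratio was -0.15 and 0.22.

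HOXC10, a gene of the lumbar level and hindlimb, had low signals, 48 and 40 in Saos-2 against 79 and 98 in Saos-2-2. Its log2 ratio was 0.31 and 0.49 (mean 0.40, standard error 0.11, limma adjusted p = 0.169). HOXC9 was at -0.06 and -0.30. The 3 tested clones listed as HOXC4 or HOXC6, which share transcripts, had means of 0.12, -0.03 and -0.27. In the HOXD cluster, HOXD11, which patterns the forearm with HOXA11, gave 138 and 124 in Saos-2 and 90.0 and 104 in Saos-2-2, with log2 ratios of -0.49 and -0.40 (mean -0.45, standard error 0.10, limma adjusted p = 0.145). HOXD9, a more anterior gene of the cluster, was at -0.54 by clone IMAGE:768205 (-0.45 and -0.62 on the arrays, adjusted p = 0.132 in limma) but at 0.07 by IMAGE:2490241, with 0.07 on each array. HOXD1 had a mean of 0.02 and HOXD8 of -0.07.

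**Figure D3:**
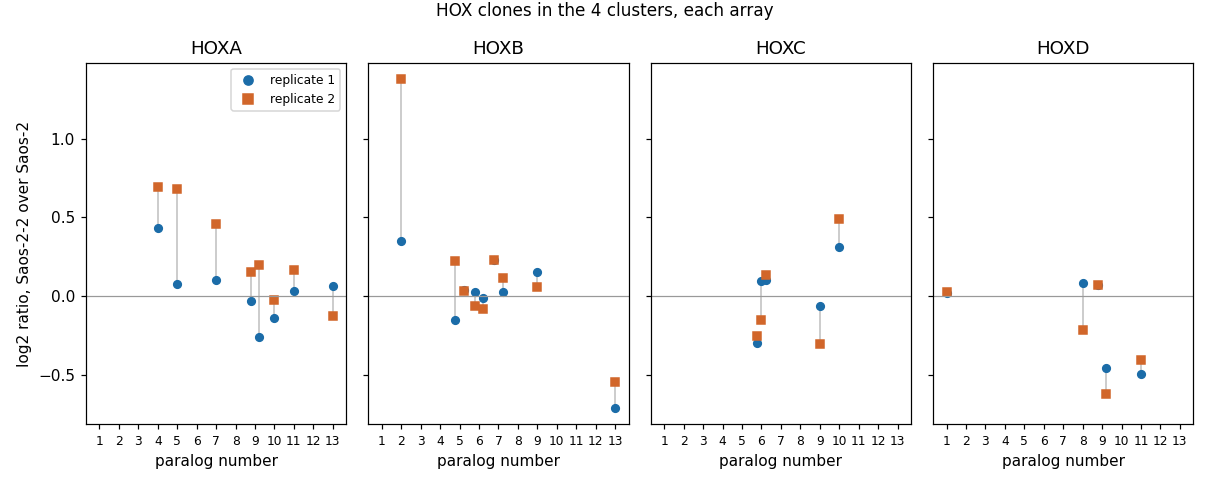
Log2 ratio of Saos-2-2 over Saos-2 on replicate 1 (circles) and replicate 2 (squares) for 27 of the 28 tested HOX clones (y axis), by paralog number (x axis) in each of the 4 clusters. Clones listed as HOXA9 or HOXA10 are drawn at 9 and those listed as HOXC4 or HOXC6 at 6. HOXB2, at 0.35 and 1.38, and HOXB13, at -0.71 and -0.54, stand farthest from 0.

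The paired-like genes PRRX1 and PRRX2 were higher in mean and differed in how far the arrays agreed. PRRX2 gave 238 and 293 in Saos-2 and 356 and 827 in Saos-2-2 by a clone of the CGAP plates. Its log2 ratio was 0.57 and 1.26 (mean 0.92, standard error 0.21, n = 2, limma adjusted p = 0.140). PRRX1 gave 77 and 71 in Saos-2, but 724 and 51 in Saos-2-2. The log2 ratio was thus 2.70 on replicate 1 and -0.52 on replicate 2, the widest gap between arrays of any member, and the mean of 1.09 (standard error 0.84, adjusted p = 0.471 in limma) describes neither. PITX1, which sets hindlimb identity, was at -0.37 and -0.45 (mean -0.41, standard error 0.10, adjusted p = 0.154 in limma), by a clone from a well recorded as a failed PCR.

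NKX genes had a median log2 ratio of 0.18 over 9 clones, between 0.15 and 0.29 in the alternatives. At an unadjusted p under 0.05, 2 clones were higher and none lower, where 13.5% and 9.70% of all probes were. NKX2-2, a gene of the ventral neural tube, was at 0.27 and 0.74 (mean 0.51, standard error 0.16, adjusted p = 0.189 in limma). NKX2-1, the thyroid and lung factor, had ratios below 0 on replicate 1 and above 0 on replicate 2 by all 3 clones, the widest being -0.59 and 0.80. Its mean ratios were between -0.01 and 0.11. NKX2-5 and NKX2-8 were at 0.18 and 0.15.

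The PAX genes combine a paired domain with a full or partial homeodomain or none. Of their clones, 7 of 10 were below 0, where 17608 of all 34674 probes were, and the median was -0.11. PAX3, a gene of neural crest and muscle precursors, was an exception at 0.50 and 0.87 (mean 0.68, standard error 0.14, limma adjusted p = 0.130), with 68 and 54 in Saos-2 and 124 and 169 in Saos-2-2, again from a well recorded as a failed PCR. PAX1, a gene of the vertebral column, was at 0.38 and 0.25 (mean 0.32, adjusted p = 0.206 in limma). Its signals were low, 33 and 41 in Saos-2 against 64 and 77 in Saos-2-2. PAX8 was at -0.34 by clone IMAGE:742101 (-0.46 and -0.22, adjusted p = 0.213 in limma), where its unadjusted p was over 0.05 in 5 alternatives, and at 0.07 by its brighter clone. The 3 clones of PAX2 lay between -0.25 and -0.09, all below 0 on both arrays. PAX5, PAX6 and PAX9 had means of -0.05, -0.24 and -0.24.

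POU genes, whose proteins pair a POU-specific domain with a homeodomain, had a median of 0.07 over 13 clones, of which 1 higher and 1 lower clone had an unadjusted p under 0.05. POU3F1, a factor of Schwann cells, gave 46 and 34 in Saos-2 and 87 and 106 in Saos-2-2, with log2 ratios of 0.43 and 0.67 (mean 0.55, standard error 0.12, limma adjusted p = 0.136). POU2F2, the lymphoid octamer factor, was at -0.55 and -0.40 (mean -0.47, standard error 0.11, adjusted p = 0.143 in limma). POU4F1, a gene of sensory neurons, gave 97 and 126 in Saos-2 and 352 and 181 in Saos-2-2. Its log2 ratio was 1.498 on replicate 1 and 0.21 on replicate 2 (adjusted p = 0.253 in limma). POU2F1, the octamer factor found in most cells, was at 0.36, 0.24, 0.23 and -0.06 by 4 clones. The clones of POU5F1, a pluripotency factor that has processed pseudogenes of near-identical sequence, were at -0.15 and -0.09, and its signal was not assigned to 1 of these copies.

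LHX2, a LIM-homeodomain gene of forebrain and limb bud, gave 216 and 204 in Saos-2 and 277 and 341 in Saos-2-2. Its log2 ratio was 0.35 and 0.49 (mean 0.42, standard error 0.11, limma adjusted p = 0.154), and LHX1 was at -0.04 and 0.53. The IRX genes had 0 of 5 clones with an unadjusted p under 0.05, where 23.2% of all probes had such a p. IRX5 gave 705 and 933 in Saos-2 and 1037 and 983 in Saos-2-2, with log2 ratios of 0.68 and 0.01. IRX3 had 0.52 and 0.01 by its brighter clone, and 0.27 and -0.31 by its other clone, as the mean of 2 spots. All 5 IRX clones had the larger ratio on replicate 1. The clones of the sine oculis relatives had means of -0.17 for SIX3 and -0.42 for SIX4, a value that came mostly from replicate 2 (-0.14 and -0.70).

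Among the 19 genes with 2 or more tested clones, 11 had all clones on 1 side of 0. The matching share over all genes on the arrays was not computed, so that this count does not measure agreement between clones. Of the 19 genes, DLX4, MSX2 and TGIF2 were those in which every clone had an unadjusted p under 0.05. In PBX3, PAX8 and HOXD9 1 clone had such a p and another lay on the other side of 0. Homeobox genes share a conserved stretch, and a cDNA spot can bind RNA of a related gene, which was not tested here.

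**Figure D4:**
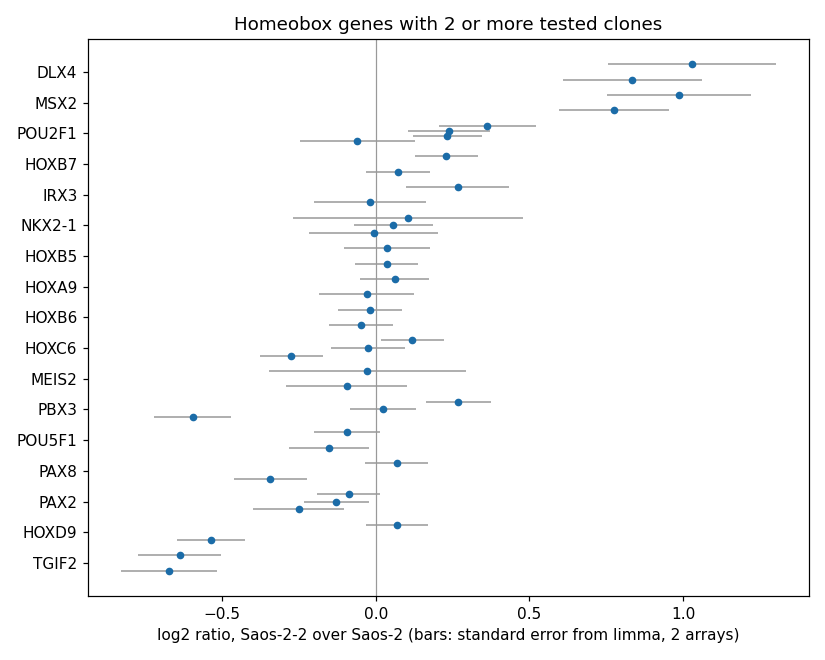
Mean log2 ratio of Saos-2-2 over Saos-2 (x axis) for each tested clone of 17 of the 19 homeobox genes with 2 or more (y axis), with the standard error from limma over 2 arrays as bars. Both clones of DLX4 and of MSX2 are above 0 and both of TGIF2 below it, while the 3 clones of PBX3 run from -0.60 to 0.27.

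The arrays differed more in the members' Saos-2-2 values than in their Saos-2 values. After normalization of each channel, the median change of a member between the arrays was 0.14 on the log2 scale in Saos-2 and 0.27 in Saos-2-2, against 0.12 and 0.21 over all tested probes. A change of 2-fold or more was seen for 1 member clone in Saos-2 and for 7 in Saos-2-2, or 1.03% and 7.22%, and for 1.21% and 4.16% of all probes. The Saos-2-2 level of PRRX1 was lower by 3.17 on the log2 scale on replicate 2, while its Saos-2 level moved by 0.05. The Saos-2-2 levels of HOXB2, DLX6 and DLX4 (IMAGE:196444) were higher on replicate 2 by 0.98, 0.98 and 1.00, and their Saos-2 levels moved by -0.04, -0.06 and 0.02. Over the 97 clones, which share 2 arrays and are not independent, Pearson's r between the replicates was 0.306 and Spearman's rho 0.405, against 0.488 and 0.535 over all tested probes. Within HOX clones r was 0.710.

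**Figure D5:**
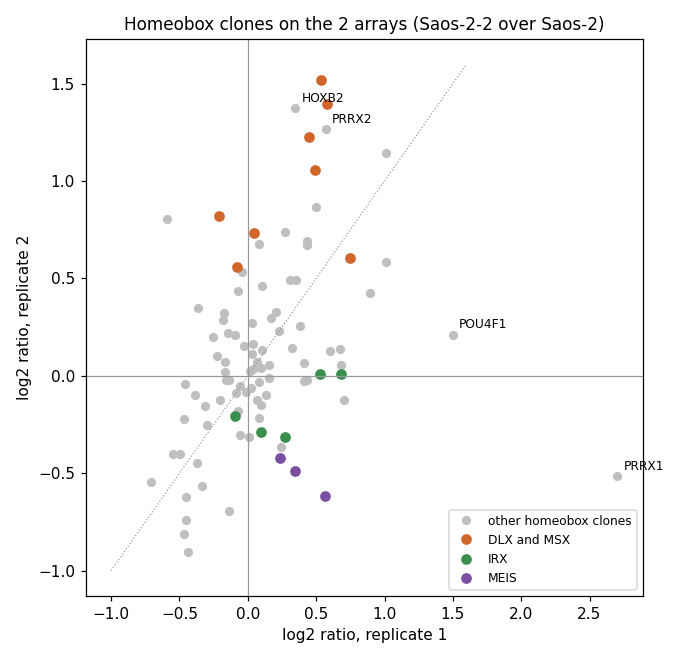
Log2 ratio of Saos-2-2 over Saos-2 on replicate 1 (x axis) and on replicate 2 (y axis) for the 97 tested homeobox clones, with DLX and MSX, IRX and MEIS clones coloured. The dotted line marks equal ratios. Most DLX and MSX clones lie above it, IRX and MEIS clones below it, and PRRX1, at 2.70 and -0.52, lies farthest from it.

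Of 97 other homeobox genes on a list kept apart from the families above, 50 had a tested probe, and by their brightest probe 9 were higher and 5 lower with an unadjusted p under 0.05, where 13.5% and 9.70% of all probes were. Their median was 0.004. SHOX2, a gene of the proximal limb, was at 0.69 and 1.87 (mean 1.28, standard error 0.32, limma adjusted p = 0.152). It had the larger ratio on replicate 2. There the Saos-2-2 sums of osteoblast markers and of each other marker group were also higher, and their part was not tested. ONECUT2 and ONECUT1, liver and neuronal factors, were at 1.09 and 0.70 (adjusted p = 0.111 for both in limma). ADNP, a chromatin-associated homeobox protein, had the lowest ratio of the list, -1.29 and -0.82 (mean -1.05, standard error 0.16, adjusted p = 0.110 in limma). Its net intensity was 9933 and 8550.0 in Saos-2 and 3370.0 and 4597 in Saos-2-2. MEOX1, a somite gene, was at -0.62 and -0.59. CDX1, HOMEZ, ZHX3, ZEB2 and GBX2 were higher, between 0.37 and 0.76, and PKNOX2 and LMX1B lower, at -0.34 and -0.31.

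Of 28 measured Polycomb and Trithorax genes, whose products silence and maintain HOX expression, 2 were higher and 2 lower by the same unadjusted threshold, a smaller share each way than the 13.5% and 9.70% of all probes, and the median was 0.07. JARID2, which recruits Polycomb repressive complex 2, was at -0.73 and -1.25 (mean -0.99, standard error 0.17, limma adjusted p = 0.115). CBX7, a reader in Polycomb repressive complex 1, was at 0.37, and MEN1, a partner of the Trithorax methyltransferase KMT2A, at -0.37. Retinoic acid induces anterior HOX genes in many cells. Of 14 measured genes of its handling and reception, 3 were higher and 3 lower by that threshold, beside the same 13.5% and 9.70%, and the median was -0.10. The receptors RARG and RARB were at 0.96 (0.67 and 1.26) and 0.69 (0.83 and 0.55), and CRABP1, which binds retinoic acid in the cytoplasm, at 0.30. ALDH1A3 and ALDH1A1, which synthesise retinoic acid, were at -1.65 (-0.73 and -2.58) and -1.08 (-0.71 and -1.45), and STRA6, the retinol receptor, at -0.44. None of these passed an adjusted p of 0.05 in limma.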

How the data were processed

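RNA of Saos-2 (Cy3) and Saos-2-2 (Cy5) was compared on 2 cDNA arrays of 41568 spots. The deposited scanner files hold linear intensities and local backgrounds, not normalized. The deposited log2 ratios of medians were scaled by the authors with 1 factor per array. Agilent Feature Extraction is named by the submitters' processing notes, with no version.

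The 226 control spots and those marked unusable (3749 and 4381) were not used. Background was corrected by normexp (offset 50) on mean foregrounds, followed by global loess and averaging per clone, in limma 3.58.1 under R 4.3.3. The offset draws the ratios of dim clones towards 0. Probes needed a channel at 1.5 times background on each array. The mean log2 ratio was tested against 0 (prior degrees of freedom 2.75), with Benjamini-Hochberg adjustment over 34674 probes. Replicates are biological per the labels. No spot was saturated, and the number of arrays limits the precision.

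Clones were named by gene identifier with current symbols. The brightest probe stood for a gene in the lists. Full statistics were meant for genes with a clone at an unadjusted p under 0.05 or a log2 ratio of 1 in size, with 3 or more clones, or among the 5 brightest. The members and lists were chosen with earlier results of these data known. In a simulation on 34674 probes, 33, 186 and 195 of 200 changed probes were found for log2 ratios of 1, 2 and 3 (adjusted p of 0.05), beside 25 false ones. There 1739 of 34074 unchanged probes had an unadjusted p under 0.05 in limma, while 23.2% of all probes did in the data. In the data 680 probes had a log2 ratio of 1 or more in size, and none passed adjustment. The simulation therefore does not give the recovery in these data. Alternatives (14, and each array alone) changed the background correction, foreground, normalization, filter, flags, variance model and values used. Leaving out failed PCR wells was chosen after seeing the data. Some members and list genes enter the counts and medians but are not reported here by name. Figures were drawn with matplotlib 3.10.9.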

Additional observations from a re-analysis of the deposited data

How the results depend on the processing

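With 2 arrays and no dye swap, no homeobox call passes adjustment in the reported fit, and dim clones are pulled towards 0 by the offset. The 17 higher clones ranged from 15 to 22 over the alternatives, and the 10 lower ones from 6 to 11. All 27 kept their sign wherever they were tested. Without normalization the median of all probes went from -0.01 to 0.09, 6 homeobox clones were lower and 22 higher (78.6% higher against 63.0%), and the members' median was 0.16. At an adjusted p of 0.05 the homeobox clones called were 1 with an offset of 10, 2 without normalization and 2 with the deposited log2 ratios (POU3F1 among them), against 0 in the reported fit. All probes called were then 654, 1350 and 2148. The members' median of 0.07 was 0.087 with plain background subtraction, 0.084 with an offset of 10, 0.046 with median foreground, 0.052 with print-tip loess, 0.080 without CGAP plates and -0.00325 with the deposited ratios, where that of all probes was -0.07. It was between 0.055 and 0.069 on 1 array alone. Of 27 clones, 19 kept the unadjusted call in all alternatives that tested them. The unadjusted call was lost for HOXB2 with median centring, HOXD11 and PAX1 with print-tip loess, HOXD11, PITX1 and POU2F2 without normalization, and LHX2 and NKX2-2 with median foreground and with the deposited ratios. The clone of PAX8 lost it in 5 alternatives, and TSG101 with plain subtraction, with an offset of 10, without normalization and with a trend and robust variance. The cause was not tested. The PITX and PRRX median of 0.25 was -0.39 without CGAP plates, where PRRX2 is left out, and 0.91 without failed PCR wells, where PITX1 is. The test was itself paired, since the ratio of each array compares the 2 lines within that array.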
